A study of Homo sapiens with 9 samples.

Results

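Knockdown of DHX9 was compared with a control shRNA by the positions and strengths of RNA polymerase II peaks in the human embryonic kidney line HEK293T. Polymerase was mapped by chromatin immunoprecipitation and sequencing (ChIP-seq) of POLR2A, the largest subunit of the enzyme. All peaks of the control list, 2757, and of the DHX9 knockdown list, 4443, were used, out of 8930 peaks in the 3 lists of the series. A peak of one list was paired with a peak of the other when they shared at least 1 bp and neither touched a further peak of the other list, which gave 1809 one-to-one pairs.

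The control cells carried shCtrl and have the genotype label wildtype, and the knockdown cells have the genotype label DHX9 knockdown. Each condition had 2 POLR2A ChIP samples and 1 input sample, which is sheared chromatin kept aside before the immunoprecipitation. The labels give neither the hairpin sequence, the delivery, the time after knockdown nor the amount of DHX9 left, and no file used here measures DHX9 RNA or protein. There was 1 deposited peak list per condition, and control peaks are named shCtrl-1, which may mean replicate 1, so whether 1 ChIP sample or both made that list is not known. No value below therefore has a replicate error, no difference between conditions was tested, and intervals cover counting error only.

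DHX9 is a DExH-box helicase that unwinds double-stranded RNA and hybrids of RNA and DNA, and it is known to associate with RNA polymerase II. R-loops, in which a nascent transcript pairs with its template strand, form at many promoters, and the series concerns R-loops at promoters. At most promoters of coding genes, polymerase pauses a short distance downstream of the start, and ChIP peaks of POLR2A gather there. Genes of the small nuclear RNAs (snRNAs) of the spliceosome are mostly transcribed by the same polymerase, are very short and end by a process of their own, and their peaks are often high.

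The peak lists name no sequence, so promoter stretches of 6 genes are shown to place the results. EEF2 and PAFAH1B1 were among the 12 largest gains and losses of rank, H3C2 had more and DDIT4 and SESN2 less summit coverage than typical pairs, and DHX9 is the targeted gene. The bases run from position -250 to -11 before the RefSeq start, 5′ to 3′ along the gene, in build GRCh38.p14. Capitals mark matches, on either strand, to the TATA box (TATAAA), the CCAAT box (CCAAT), the GC box (GGGCGG) and the E-box (CACGTG).
EEF2, chr19:3985474-3985713, minus strand: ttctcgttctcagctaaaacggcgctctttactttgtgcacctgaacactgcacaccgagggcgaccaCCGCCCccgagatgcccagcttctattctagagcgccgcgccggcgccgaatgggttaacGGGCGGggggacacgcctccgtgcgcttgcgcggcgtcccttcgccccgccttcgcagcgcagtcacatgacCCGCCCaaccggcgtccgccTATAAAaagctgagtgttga
PAFAH1B1, chr17:2593404-2593643, plus strand: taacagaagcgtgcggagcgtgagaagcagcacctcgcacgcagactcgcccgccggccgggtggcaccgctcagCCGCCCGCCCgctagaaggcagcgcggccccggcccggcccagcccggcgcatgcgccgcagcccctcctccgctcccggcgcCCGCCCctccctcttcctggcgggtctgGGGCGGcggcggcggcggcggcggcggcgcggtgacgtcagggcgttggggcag
H3C2, chr6:26032110-26032349, minus strand: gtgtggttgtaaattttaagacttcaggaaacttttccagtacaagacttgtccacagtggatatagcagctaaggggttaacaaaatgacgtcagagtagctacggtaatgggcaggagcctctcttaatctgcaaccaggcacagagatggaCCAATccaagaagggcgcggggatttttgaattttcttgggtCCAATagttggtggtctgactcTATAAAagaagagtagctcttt
DDIT4, chr10:72273674-72273913, plus strand: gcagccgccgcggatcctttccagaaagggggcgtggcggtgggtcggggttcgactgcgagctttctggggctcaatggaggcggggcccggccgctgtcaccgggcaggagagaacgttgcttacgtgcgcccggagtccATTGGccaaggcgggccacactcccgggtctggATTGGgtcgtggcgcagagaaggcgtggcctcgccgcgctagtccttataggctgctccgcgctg
SESN2, chr1:28259268-28259507, plus strand: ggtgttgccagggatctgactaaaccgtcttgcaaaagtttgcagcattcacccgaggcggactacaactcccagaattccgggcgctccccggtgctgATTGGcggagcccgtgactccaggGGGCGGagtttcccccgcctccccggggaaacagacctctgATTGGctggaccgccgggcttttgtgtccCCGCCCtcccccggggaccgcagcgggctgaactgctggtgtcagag
DHX9, chr1:182839097-182839336, plus strand: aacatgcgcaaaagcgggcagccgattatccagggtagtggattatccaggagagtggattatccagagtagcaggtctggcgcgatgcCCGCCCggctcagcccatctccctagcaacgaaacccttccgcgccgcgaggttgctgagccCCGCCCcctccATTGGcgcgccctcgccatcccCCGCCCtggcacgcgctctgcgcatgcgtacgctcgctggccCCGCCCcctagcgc

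EEF2 and H3C2 held a TATA box, whose first base lay at -30 and -32, a motif present within 250 bases upstream of the start in 10.7% of the 35116 promoters of the RefSeq table. DDIT4 and SESN2 each held 2 CCAAT boxes, H3C2 also held 2 and DHX9 held 1, against a share of 32.0% of all promoters with at least 1. GC boxes stood in 42.6% of all promoters and E-boxes in 6.34%. None of the 6 stretches held an E-box, and a match is only a description of the letters.

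Before the values, the depth of the lists needs stating, because it limits them. The whole number of DNA fragments over each summit was recovered from the deposited fold enrichment and p-value for 98.9% of control peaks and 99.8% of DHX9 knockdown peaks. A median control peak rested on 41 fragments and a median DHX9 knockdown peak on 17, and the genome-wide mean per position was 2.95 times as high in the control. Of 10 genes taken as HEK293T markers, 0 had a peak at a start in the control list and 2, ZIC2 and TUBB3, in the DHX9 knockdown list. Of 12 markers of other cell types, 0 had one in either list, so the peaks neither support nor contradict the labelled cell line.

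Pairs were compared first by rank. Each peak received a percentile of its fold enrichment, 100 being the highest, and a shift is the percentile under DHX9 knockdown minus that in the control. Within their whole lists, paired peaks stood at a median percentile of 58.3 in the control and 70.0 under DHX9 knockdown, with a median shift of 4.73 points (95% interval 3.34 to 6.33). The pairs were 65.6% of the control list and 40.7% of the longer DHX9 knockdown list, so whole-list ranks also carry the difference in length. Ranks among the pairs alone were therefore used for single genes.

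Among the pairs alone, 335 of 1809 stood at least 25 points higher under DHX9 knockdown (18.5% of pairs) and 335 stood at least 25 points lower (18.5% of pairs). With whole-list percentiles the split was 455 higher and 227 lower. The middle 50% of shifts ran from -18.0 to 17.1 points, and Spearman's rho of fold enrichment across the pairs was 0.50. Counting error alone gave a single shift an interval of about 61.9 points to either side at the median. Of the 1787 pairs with fragments in both lists, 55 had a shift interval wholly above 0 and 51 wholly below 0. They made up 28 of the 333 pairs called higher and 26 of the 335 called lower that had fragments, so most calls had a shift interval that included 0.

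**Figure D1:**
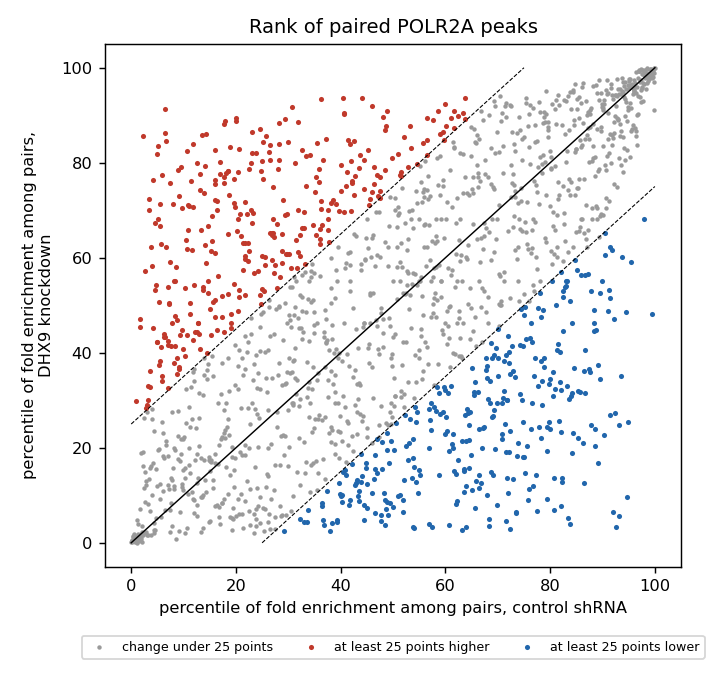
Percentile of fold enrichment among the 1809 pairs in the control (x axis) and under DHX9 knockdown (y axis), with 1 point per pair. The solid line marks equal rank and the dashed lines a change of 25 points, with 335 pairs above and 335 below them.

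Percentiles are bounded, so the largest gains of rank at a gene's own start could come only from peaks ranked low in the control. CDPF1 led, with a fold enrichment of 2.81 in the control and 10.6 under DHX9 knockdown, from 42 and 34 fragments, a shift of 84.8 points (interval 43.2 to 93.3). LRRFIP2 had folds of 2.10 and 9.05 and a shift of 83.4 points (44.2 to 93.5). EEF2, the elongation factor that moves the ribosome along its message, had folds of 2.80 and 9.22 and a shift of 79.9 points (35.0 to 91.9). All 3 had shift intervals wholly above 0.

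The other 9 gains ran from 71.4 to 78.4 points. The interval of MTCH1 included 0 (-3.70 to 91.8), and DENR had none because its control fragments were not recovered. Those of the rest lay above 0. They included MAP4, a microtubule-associated protein, with folds of 2.66 and 8.40, and TAB2, an adaptor of the kinase TAK1, with folds of 3.21 and 9.08. DENR, a factor of translation reinitiation, closed the group with folds of 2.76 and 7.90. The remaining 6 were CHKB-DT, FAM219B, STK16, MTCH1 and the lncRNA genes ENSG00000289469 and ENSG00000289960.

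For the same reason, the largest losses of rank could come only from peaks ranked high in the control. ABCD4, a lysosomal transporter of vitamin B12, had a fold enrichment of 8.51 in the control and 3.43 under DHX9 knockdown, a shift of -89.2 points (-94.0 to -58.6). HSP90AB1, a cytosolic chaperone, had folds of 8.18 and 3.97 and a shift of -85.5 points (-93.0 to -45.4). H3C12, a replication-dependent histone H3 gene, had folds of 6.16 and 3.55 and a shift of -79.9 points (-89.6 to -35.4). ARF4, a small GTPase of the Golgi, had folds of 6.14 and 3.77 and a shift of -78.3 points (-90.3 to -5.75).

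The other 8 losses ran from -69.5 to -74.3 points, and all but RPL22L1 (-72.4 points, -91.2 to -9.01) had an interval that included 0. PAFAH1B1, a regulator of the motor dynein, went from a fold of 6.58 to 4.44 with 44 and 14 fragments. MRPL34, a protein of the mitochondrial ribosome, went from 5.88 to 3.99 with 55 and 16 fragments. ACADSB, VOPP1, CDCA7L, FAM220A and ZDHHC4 completed the group.

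A fold enrichment divides the signal at the summit by a local background, and the background moved with the rank shifts. In multiples of the library's genome-wide mean, the median local background of pairs at least 25 points higher was 2.10 in the control and 1.37 under DHX9 knockdown, while their summit coverage was 8.29 and 13.7. For pairs at least 25 points lower, the background was 1.45 and 1.42 and the summit coverage 8.90 and 9.54. Over all pairs the background was 1.79 and 1.39 and the coverage 8.70 and 11.9. Across 1787 pairs, the shift had a Spearman's rho of 0.60 with the ratio of summit coverage and of -0.57 with the ratio of local background, values that share the same fragments.

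HSP90AB1 showed the background term. Its summit coverage was 15.8 in the control and 16.1 under DHX9 knockdown, while its local background was 1.70 and 3.61. H3C12 had a higher coverage under DHX9 knockdown, 12.5 and 17.3, with a background of 1.82 and 4.45. ABCD4 had a coverage of 15.2 and 11.9 and a background of 1.55 and 3.06. In CDPF1 both terms differed, with a coverage of 8.50 and 20.3 and a background of 2.86 and 1.37. What set the local background in each library was not tested.

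Summit coverage was therefore compared directly, a choice made after the values were seen. Coverage is the number of fragments at the summit divided by the genome-wide mean of the same library, and a coverage ratio is DHX9 knockdown over control. The median ratio of 1787 pairs was 1.39, with the middle 50% from 1.17 to 1.63, and log2 coverage had a Pearson correlation of 0.90 across the pairs. The ratio's interval lay wholly above the median of all pairs for 55 (3.08% of pairs) and wholly below it for 60 (3.36% of pairs). Ratios are read below against 1.39, since the libraries' overall enrichment cannot be told apart from a change at all promoters.

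**Figure D2:**
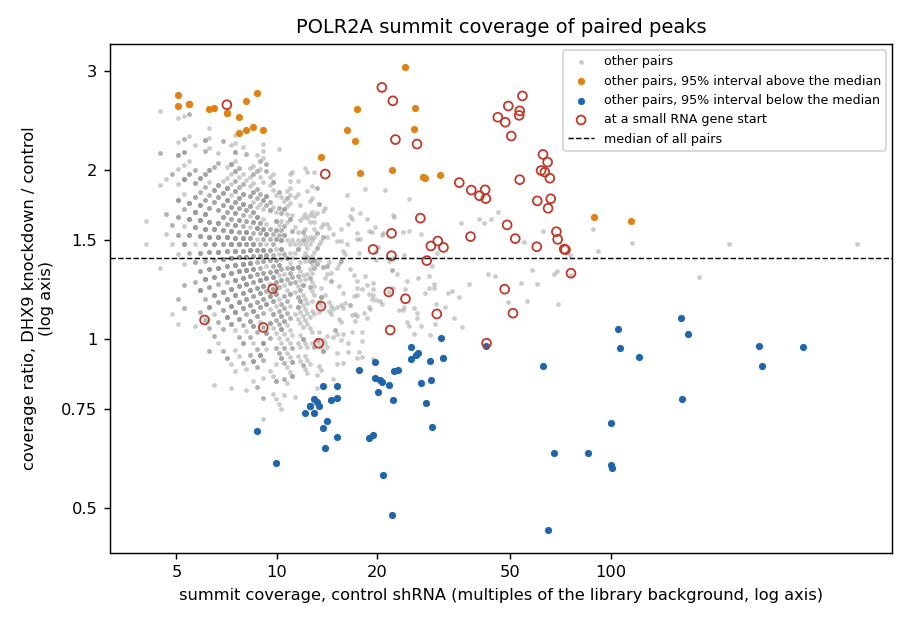
Ratio of POLR2A summit coverage, DHX9 knockdown over control, against control coverage for 1787 pairs, both on log axes, with 1 point per pair. Rings are pairs at small RNA gene starts, coloured points are other pairs whose 95% interval excludes the median of 1.39 (dashed line), and most rings with control coverage above 40 lie above that line.

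Starts of small RNA genes held 67 of the 1809 pairs and 26 of the 55 whose interval lay above the median, and all 26 were at snRNA genes. Coding starts, with 1424 pairs, held 15 of the 55 and 34 of the 60 below. Places outside genes held 49 pairs and 14 of the 60 below.

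Of the 46 pairs whose nearest start was an snRNA gene, 38 had fragments in both lists. Their median summit coverage was 49.9 in the control and 101 under DHX9 knockdown. Those left out included strong peaks that went either way, such as RNU1-28P with folds of 30.7 and 26.0 and RNVU1-14 with 20.1 and 49.1. The median ratio was 1.87, and it ran from 1.11 to 2.80 in the 38 pairs with fragments in both lists. The ratio was above the median of all pairs in 36 of those 38. Set beside them, the 55 coding starts whose geometric mean coverage over both lists was at least 20 had median coverages of 22.3 and 28.6 and a median ratio of 1.25. Of these 55, 17 were above the median of all pairs, 3 had an interval wholly above it and 11 wholly below it. That set was chosen after the values were seen, and the snRNA pairs had higher coverage in both lists.

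U2 snRNA, which pairs with the branch point of introns, had the highest median ratio of the snRNA families. Its genes form an array of near-identical copies on chromosome 17, with 13 pairs, 11 of them with fragments in both lists. Coverage there was 54.4 in the control and 128 under DHX9 knockdown, and all 11 intervals lay above the median of all pairs. RNU2-1 (chr17:43233046-43234054 in the control list, GRCh38) had 269 control fragments and 247 DHX9 knockdown fragments, a coverage of 54.4 and 147 and a ratio of 2.71 (2.27 to 3.23). RNU2-63P, a pseudogene copy on chromosome 2, had 110 and 99 fragments and a ratio of 2.65 (2.00 to 3.51).

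U1 snRNA recognises the 5′ splice site, and its genes and variants lie mostly on chromosome 1. Their 23 pairs had a median ratio of 1.73, from 1.41 to 2.80, and 10 of 18 intervals lay above the median of all pairs. A further pair at the U1 variant RNVU1-2, whose nearest start is that of MIR6077, had 149 and 56 fragments a ratio of 1.11, widths of 1269 and 776 bp and a downstream edge difference of -454 bp. With it the U1 list had 24 pairs and a median ratio of 1.71. RNVU1-31, a variant U1 gene, had 102 and 97 fragments and a ratio of 2.80 (2.10 to 3.74), and RNU1-3 had 239 and 197 fragments and a ratio of 2.43 (2.00 to 2.95). Genes of U4, U5 and minor spliceosomal snRNAs, 9 pairs, had a median ratio of 1.67, with 4 of 8 intervals above. RNU5A-8P, a copy of a U5 gene, had 112 and 86 fragments and a ratio of 2.26. Pairs at the snRNA genes RNU11 and RNU7-1, whose nearest starts belong to other genes, had ratios of 1.57 and 1.30. A pair at the U2 gene RNU2-2P, whose nearest start is that of WDR74, gave no ratio because its control fragments were not recovered. Unlike the U2 ratios above, its fold enrichment was lower under DHX9 knockdown, at 19.7, than in the control, with a shift of -2.82 points.

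The 5 pairs at snoRNA genes, which guide RNA modification or processing, gave a ratio in 3, of 1.44 to 1.46, near the median of all pairs. The 16 pairs at other short genes, miRNA, ribosomal RNA and miscellaneous RNA entries that partly lie in the promoters of longer genes, had a median ratio of 1.18. The local background of the snRNA pairs with fragments in both lists was 2.60 in the control and 2.83 under DHX9 knockdown. Over all pairs it was lower under DHX9 knockdown. Reads from near-identical copies can be placed at any of them, and how the authors treated such reads is not given in the sources used here, so the copies are not independent and single copies are uncertain.

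The snRNA peaks also reached farther downstream under DHX9 knockdown. Their median width was 1122 bp in the control and 1304.5 bp under DHX9 knockdown, and 42 of 46 were wider. The downstream edge lay farther downstream in 42 of 46, by a median of 161.5 bp, while the upstream edge differed by a median of 0 bp. At the 55 coding starts set beside them the downstream edge differed by a median of 2 bp and 28 of 55 lay farther downstream. RNU1-4 had the largest gain of width among the U1 genes, from 1132 to 1787 bp, with 125 bp gained upstream and 530 bp downstream.

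**Figure D3:**
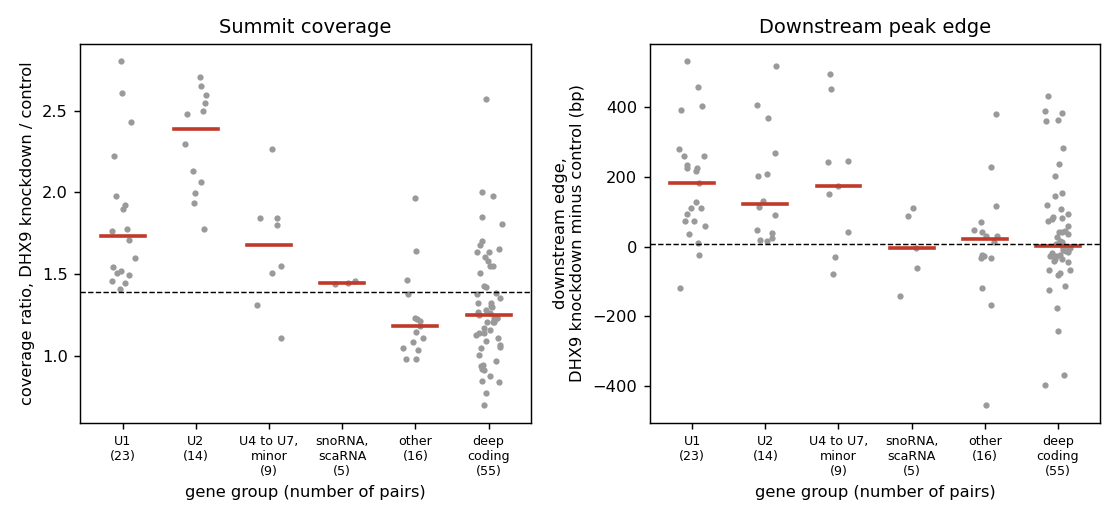
Left, summit coverage ratio, DHX9 knockdown over control, and right, difference in the downstream peak edge in bp, with 1 point per pair, red bars at group medians and the number of pairs in brackets. Dashed lines mark the medians of all pairs, 1.39 and 8 bp; coding starts with a geometric mean coverage of at least 20 stand on the right of each panel (deep coding).

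Summits at snRNA genes moved in the same direction. The median summit lay 228.5 bp downstream of the start in the control and 365.5 bp under DHX9 knockdown. The median move within a pair was smaller, 64.5 bp, and it was 14 bp at the U2 pairs of chromosome 17. Of the 46, 35 were farther downstream and 17 were so by at least 100 bp, against 1 upstream by that distance. The 3 largest downstream moves at any gene start were all at U2 copies on chromosome 17, from 94 to 912 bp, from 208 to 880 bp and from 206 to 875 bp after the start. Other copies of this array already had summits at 936 and 874 bp in the control. RNU2-63P moved from 120 to 512 bp and RNU1-3 from 177 to 485 bp.

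For the same genes in the U2AF1 knockdown list, which shares the control, 37 snRNA pairs had an overlapping peak with fragments, and the median ratio of U2AF1 knockdown to control coverage was 0.73. Over 721 pairs at a start it was 0.98, and over 53 of the 55 coding starts set beside the snRNA pairs above it was 0.84.

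Replication-dependent histone genes, whose short transcripts end in a stem-loop and carry no poly(A) tail, had 21 pairs and a median ratio of 1.47. Of these, 13 were above the median of all pairs and 2 had an interval above it. H3C2 had 86 and 75 fragments, a coverage of 17.4 and 44.7 and a ratio of 2.57 (1.86 to 3.54). H3C14, the other with an interval above the median, had 109 and 74 fragments and a ratio of 2.00 (1.47 to 2.71). H2AC12, whose interval included the median, had 91 and 57 fragments and a ratio of 1.85 (1.30 to 2.60). Of the 21 histone pairs, 12 were narrower under DHX9 knockdown and 9 wider, with a median difference of -65 bp, and the median difference of the downstream edge was -147 bp. H3C12 went from 1554 to 247 bp, H2AC12 from 2184 to 1332 bp and H4C5 from 910 to 354 bp, all 3 among the 5 largest losses of width. Several of these genes stand close together, so 1 peak can cover more than 1 of them.

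The pairs at a start whose coverage ratio had the lowest upper interval bounds had ratios near or under 1, which is below most pairs. Ordering by that bound left out pairs such as FAM220A, whose ratio was 0.69 with a higher upper bound. DDIT4, a stress-induced inhibitor of the growth kinase mTORC1, had 103 fragments in the control and 20 under DHX9 knockdown, a coverage of 20.8 and 11.9 and a ratio of 0.57 (0.34 to 0.93). SESN2, which restrains the same kinase when amino acids are scarce, had 70 and 17 fragments and a ratio of 0.72 (0.39 to 1.23). Both intervals lay below 1.39, and that of DDIT4 also lay below 1.

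SLC1A5, a glutamine transporter, had 138 and 36 fragments and a ratio of 0.77 (0.52 to 1.12). FASN, the fatty acid synthase, had 110 and 29 fragments and a ratio of 0.78 (0.50 to 1.18), and DGAT1, an enzyme of triglyceride synthesis, had 93 and 21 fragments and a ratio of 0.67 (0.39 to 1.08). The transcription regulators HES6, CITED2 and ID2 had ratios of 0.67, 0.85 and 0.84. RPL12, SNHG29 and KLHDC2 had ratios between 0.60 and 0.70. These genes were chosen by the upper bounds of their ratio intervals after the values were seen. The 38 coding starts with at least 100 control fragments had a median ratio of 1.10, and 15 of their intervals lay below the median of all pairs.

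Promoter letters were compared between the pairs at the extremes, as a description. Of the pairs at a start below the median, 29 of 40 gene names matched the RefSeq table, and 16 of those 29 held a CCAAT box (55.2%). The table held no snRNA genes by these names, so the 26 snRNA pairs among the 46 above the median are left out. Of all names above, 14 of 37 matched, and 7 held one (50.0%). Among 1231 matched names of all pairs at a start the share was 32.3%. GC boxes stood in 72.4%, 57.1% and 76.0% of the same groups, E-boxes in 17.2%, 7.14% and 9.42%, and TATA boxes in 13.8%, 14.3% and 7.80%.

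Gene lists were read against 1.39 and against the 18.5% of pairs called in each direction. The value 1.39 takes no account of how strong a list's control peaks were, and the part of that strength in the list medians was not tested. Immediate early genes, which respond within minutes to signals, had 12 pairs, with 11 shifts below 0 and 1 above, and a median ratio of 1.17. JUN had 97 and 30 fragments and a ratio of 0.91, DUSP1 73 and 25 fragments and a ratio of 1.01, and MYC 51 and 19 fragments and a ratio of 1.10. IER5 was the exception by rank, with a shift of 11.1 points. Only KLF10 passed 25 points, at -44.7.

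The list of heat shock chaperones had 9 pairs, 1 at least 25 points higher and 4 at least 25 points lower. Its median shift was -12.2 points and its median ratio 1.12. It also holds the transcription factor HSF1, through a peak whose nearest start is that of BOP1. HSPA5, the chaperone of the endoplasmic reticulum, had 57 and 18 fragments and a ratio of 0.93. DNAJA1, a co-chaperone of HSP70, stood apart with 40 and 22 fragments, a ratio of 1.62 and a shift of 50.8 points.

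Hosts of intronic snoRNAs had 18 pairs, and 14 of 18 ratios were below the median of all pairs, with a median of 1.19. SNHG29 had 69 and 15 fragments and a ratio of 0.64, GAS5 118 and 45 fragments and a ratio of 1.12, and NOP56 82 and 46 fragments and a ratio of 1.65. By rank the list stayed level, with 1 pair called in each direction. Cytosolic ribosomal proteins had 38 pairs, 9 called higher and 7 lower, and a median ratio of 1.33. Their shifts spread from RPL22L1 at -72.4 to RPS21 at 63.3 points.

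**Figure D4:**
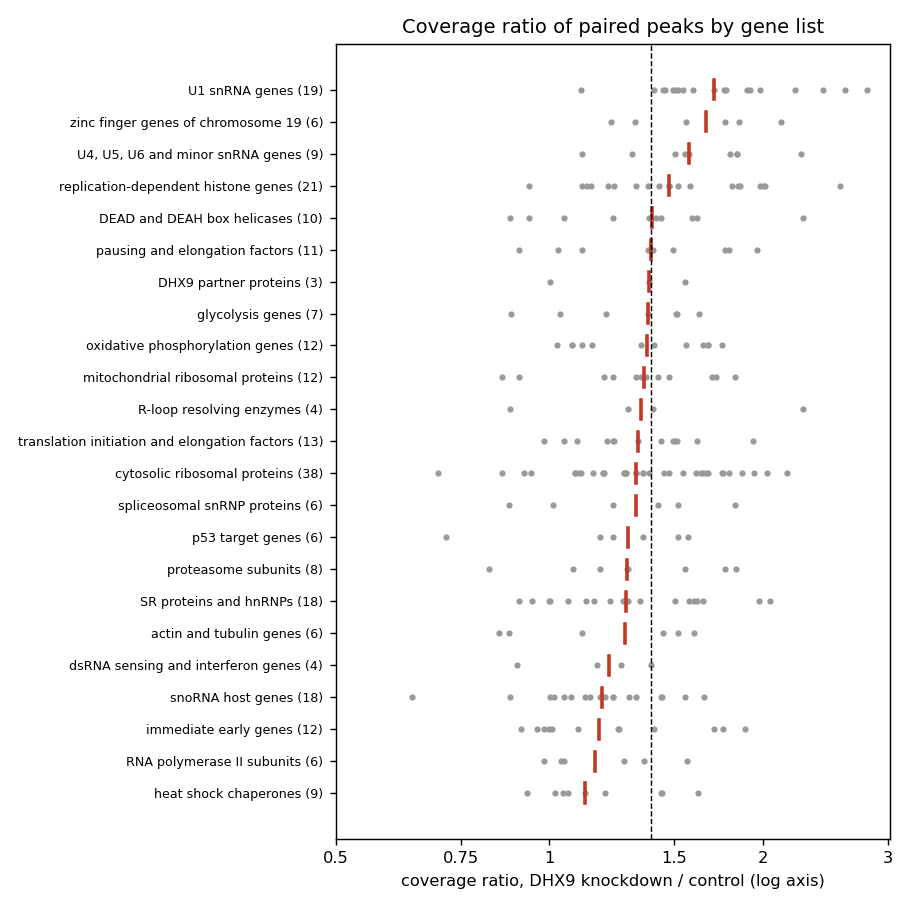
Coverage ratio of paired peaks, DHX9 knockdown over control on a log axis, for each gene list with at least 3 ratios, with 1 point per pair, a red bar at the median and the number of ratios in brackets. The dashed line is the median of all pairs, 1.39. Among the lists shown, U1 snRNA genes stand highest at 1.71 and heat shock chaperones lowest at 1.12. The U2 list is not shown, as it gave under 3 ratios and does not hold the copies annotated only as U2.

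The machinery of transcription and of R-loops gave few pairs. Factors of pausing and elongation had 11 pairs, 3 called higher and 2 lower, and a median ratio of 1.39. Among them CCNT1, the cyclin of the pause-release kinase P-TEFb, shifted by 47.8 points, and MEPCE, which caps the 7SK RNA that holds this kinase inactive, had 2 pairs at -34.2 and -1.77 points. Subunits of RNA polymerase II had 6 pairs, of which 5 ratios were below the median of all pairs. The list of R-loop resolving enzymes, which also holds the splicing factor SRSF1 and DHX9 itself, had 4 pairs. DDX5, an RNA helicase, shifted by -54.9 points (-90.0 to 5.42) with a ratio of 0.88. RNASEH2C, a subunit of RNase H2, shifted by 28.4 points (-62.8 to 83.8) with a ratio of 1.40.

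The targeted gene itself kept a peak. At DHX9 (chr1:182839286-182839591 in the control list) there were 31 fragments in the control and 24 under DHX9 knockdown, a coverage of 6.27 and 14.3 and a ratio of 2.28 (1.28 to 4.02). Its local background was 1.20 and 2.50, and its rank shift was -32.1 points with an interval from -82.2 to 55.8. A short hairpin acts on the transcript, so a promoter peak does not check the knockdown, and the antisense gene DHX9-AS1 starts within 1000 bp. POLR2A, which encodes the precipitated protein, had 177 and 63 fragments and a ratio of 1.05 (0.77 to 1.41). PGK1 had folds of 42.3 and 112 and a shift of 0.17 points, and U2AF1 had no pair at a start.

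Peaks were slightly wider under DHX9 knockdown. The median width of paired peaks was 352 bp in the control and 394 bp under DHX9 knockdown, and the median difference was 23 bp (16 to 29). Of the 1809 pairs, 1064 were wider, 742 narrower and 3 equal. At starts, the upstream edge lay 10 bp farther out at the median and the downstream edge 8 bp. H3-3A, a replication-independent histone gene, went from 219 to 1087 bp and HES4, a Notch target, from 268 to 1014 bp, both mostly by their upstream edge. NDUFAF3, an assembly factor of respiratory complex I, went from 380 to 1091 bp, by its downstream edge. ENSG00000275664, on the short arm of chromosome 21, went from 677 to 1710 bp.

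Summits stayed near the start. Of 1767 pairs on annotated sequences, 1689 had both summits within 1000 bp of the same gene's start, or 95.6% (Wilson 94.5 to 96.4). The median summit lay 33 bp downstream of the start in the control and 30 bp under DHX9 knockdown, with a median move of -3 bp (-6 to 0). Within 50 bp stayed 57.1% of summits and within 150 bp 84.2%. Summits downstream of the start made up 72.9% of pairs in the control and 65.8% under DHX9 knockdown.

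Summits more than 50 bp upstream made up 14.5% of pairs in the control and 24.1% under DHX9 knockdown. Among pairs with 9 to 16 fragments under DHX9 knockdown the shares were 20.5% and 35.9%, and among those with 27 to 1352 fragments they were 8.53% and 14.5%. Depth thus moved with the share in both lists, and its part in the difference was not tested. In 4 groups of pairs ordered by these fragments the median move was -11, -4, -3 and 1 bp, from few to many fragments.

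**Figure D5:**
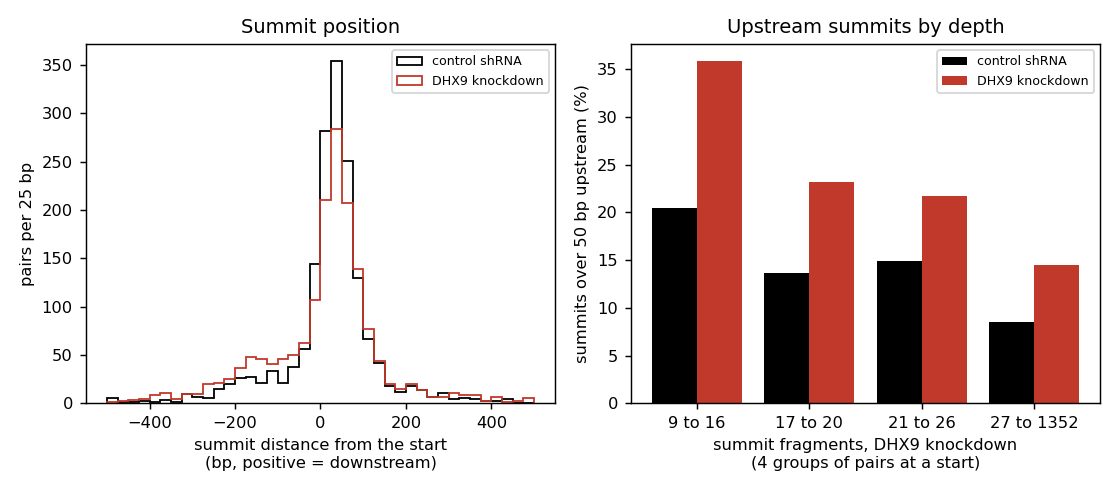
Left, number of pairs per 25 bp by the distance of the summit from the start, within 500 bp, in the control (black) and under DHX9 knockdown (red). Right, percentage of summits more than 50 bp upstream in 4 groups of pairs by DHX9 knockdown fragments, which is 20.5% in the control and 35.9% under DHX9 knockdown at the fewest fragments and 8.53% and 14.5% at the most.

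Base composition after the start did not order the pairs. In the 500 bp downstream of the start, the shift had a Spearman's rho of -0.0070 with GC content, 0.035 with the ratio of observed to expected CpG and -0.041 with GC skew, the excess of G over C on the coding strand, over 1689 pairs. GC skew is a known feature of promoters that form R-loops. In the 338 pairs with the highest skew, 13.9% were called higher and 20.4% lower, with a median shift of -2.14 points and a median ratio of 1.36, and in the 338 with the lowest skew both shares were 19.5%, with -0.21 points and 1.39. Bidirectional coding promoters, 239 pairs, had a median ratio of 1.36 and other coding starts 1.38.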

How the data were processed

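The members and gene lists were chosen with earlier results of these data known. Per the submitters' processing notes, Bowtie2 2.4.5, deepTools 3.5.1, MACS2 2.2.7.1 and hg38 were used, without roles or options. The deposited lists give, per the authors' caller, a fold enrichment, a ratio, and the −log10 of a p-value and a q-value for each peak; the lowest −log10 q was 1.31 in both lists. Percentiles, pairs and distances were computed here with numpy 2.4.6, scipy 1.17.1 and pandas 2.3.3 against GENCODE 44 and GRCh38 (all sequence names found, 0 peaks past an end). Starts are transcript starts; the wording first planned was gene starts, which is given as an alternative. Summit fragments were recovered by assuming fold = (pileup + 1) / (background + 1) and a Poisson tail, within 0.0005 of −log10 p; control pileups were fragments times 0.779, DHX9 knockdown pileups were unscaled. The recovery was tested on simulated data. Intervals are 95%, by Wilson for shares, order statistics for medians and exact conditional Poisson for ratios, except those of single rank shifts. A shift interval joins opposite 95% Poisson bounds of the 2 lists and is wider than 95%. PCR reads are not independent molecules, so intervals cover counting error only. With 1 list per condition there is no test between conditions. Named genes were the 12 largest rank shifts each way at a start, the 5 largest width changes and summit moves each way, and fixed loci. Added after the values were seen were 12 pairs each way by coverage ratio. These were ordered by the lower interval bound for high ratios and by the upper bound for low ratios. Not every gene these rules chose is reported here. The 26 gene lists gave symbols or name patterns; those not described in the text are in the figure of lists or had under 3 ratios. Input samples were not analysed here on their own.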

Additional observations from a re-analysis of the deposited data

How the results depend on the processing

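No paired analysis was possible because the 2 ChIP samples of a condition share a single list, so no replicate could be blocked or left out. The number of pairs stayed between 1230 and 1776 under the other definitions. The median rank shift of 4.73 points was 2.96 with −log10 q of at least 5, 6.77 ranked by −log10 p, -0.036 with lists of equal length and 0 among the pairs alone, the last by construction. With −log10 q of at least 5, where fewer pairs are left, 214 pairs were called higher and 216 lower. Ranked by summit coverage, an alternative added after the data were seen, 203 were higher and 199 lower. Among pairs with at least 30 DHX9 knockdown fragments, also added later, the median width difference was 49 bp and the median summit move 2 bp, in the opposite direction to -3 bp. The share at a start was 88.4% for protein-coding genes, 93.2% within 500 bp and, added later, 87.4% for the 5′ ends of gene features; the cause of these differences beyond the smaller sets was not tested. The 24 named rank shifts kept their direction and stayed past 25 points when ranked by −log10 p. Depth limits what single genes can show: a median DHX9 knockdown peak rested on 17 fragments.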

Other observations

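More members of several gene lists had a peak at their start in the DHX9 knockdown list, which was the longer list. Over all genes, 2315 control peaks and 3943 DHX9 knockdown peaks lay at a start, a count of peaks and not of genes. Zinc finger genes of chromosome 19, a large family of repressors of transposable elements, had a peak at the start of 8 genes in the control list and 24 in the DHX9 knockdown list. Factors that recognise the branch point and the 3′ splice site had 4 and 12, and mitochondrial ribosomal proteins 18 and 34. The list of R-loop resolving enzymes, with SRSF1, had 6 and 13. Replication-dependent histone genes had 38 in each list. No list was tested against the others.

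Peaks found in 1 list only differed in place. Of control peaks without overlap, 67.8% (Wilson 64.7 to 70.8) lay at a start, and of DHX9 knockdown peaks without overlap, 88.4% (87.0 to 89.5). The highest control peak at a start without a partner was at ANAPC7, a subunit of the anaphase-promoting complex, with 147 fragments and rank 30 of the list. SOCS1, an inhibitor of cytokine signalling, followed with 84 fragments. Under DHX9 knockdown the highest such coding peak was at BSG, a membrane glycoprotein, with 34 fragments, and RNVU1-19, a variant U1 gene, had 30. By chromosome, the median coverage ratio of pairs ran from 1.30 on chromosome 13 to 1.47 on chromosomes 1 and 15.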
